A study of Mus musculus with 2 samples.

Results

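Klf2, Klf4 and Klf5 are 3 of the 26 Krüppel-like and Sp factor genes of the mouse and 3 of 22380 protein-coding genes annotated on mm9. The open chromatin around them was read from the lists of ATAC-seq peaks of wild-type (WT) and Uhrf1 knockout (KO) embryonic stem cells (ESCs), taking every peak that overlapped the gene or the 100 kb on either side of it. This gave 62 of 71914 WT peaks and 50 of 61640 KO peaks, 112 in all, and each was placed by the distance of its centre from the transcription start site (TSS). The genes were chosen by name for their role in pluripotency and not for their peaks, though earlier results of these data were known by then.

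ATAC-seq marks DNA that nucleosomes leave free, because the Tn5 transposase inserts sequencing adapters there. The WT cells were undifferentiated E14 ESCs, and the KO cells were E14 ESCs without Uhrf1, the protein that brings the DNA methyltransferase Dnmt1 to newly replicated DNA. Both were grown in serum medium with leukemia inhibitory factor (LIF), on gelatin or on embryonic fibroblasts, and 50000 cells were lysed for each library. There was 1 library per genotype, so the values compare these libraries and not the genotypes, and no test was made. The study's cells came from another laboratory, and other Uhrf1 KO lines of the study were made with Cre. The labels give the KO library as E14 without saying how many clones it stands for, and its peaks hold no expression value by which the loss of Uhrf1 could be checked.

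Krüppel-like factors are zinc finger proteins that bind GC-rich CACC boxes. In mouse ESCs, Klf4 is switched on by LIF through Stat3, Klf2 depends on Oct4, and Klf5 is a further member of the set. The proteins share many target genes with each other and with Oct4, Sox2, Nanog and Esrrb, and each can compensate in part for loss of the others in naive pluripotency.

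Chromatin was open at the start of all of these genes in both libraries, and the genes differed in what lay around the start. Klf2 had open sites on both sides, 6 of 14 of them listed in both libraries, and its unpaired peaks were about as frequent as on chromosome 8 as a whole, as given below. Klf4 had 5 sites, all downstream of or at its start and all present in both libraries. Klf5 had sites spread over both flanks, most of them shared. The stretches that carry these results are given here from mm9, on the plus strand, and capitals mark every match, on either strand, to the CACC boxes CCACACCC and CCCCACCC or to the octamer ATGCAAAT, which Oct4 binds.

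The upstream side of each promoter is shown because an open site there was common to all of the genes. Klf2 lies at chr8:74842932-74845555 on the plus strand, Klf4 at chr4:55540013-55545347 on the minus strand and Klf5 at chr14:99697910-99712624 on the plus strand. The stretches come from chr8:74842653-74842931, chr4:55545348-55545469 and chr14:99697739-99697884.
Klf2 promoter: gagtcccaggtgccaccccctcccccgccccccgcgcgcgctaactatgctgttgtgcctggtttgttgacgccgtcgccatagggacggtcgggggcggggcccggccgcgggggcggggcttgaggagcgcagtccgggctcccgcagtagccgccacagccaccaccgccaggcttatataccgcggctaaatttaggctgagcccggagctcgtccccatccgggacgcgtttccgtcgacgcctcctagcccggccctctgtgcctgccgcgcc
Klf4 promoter: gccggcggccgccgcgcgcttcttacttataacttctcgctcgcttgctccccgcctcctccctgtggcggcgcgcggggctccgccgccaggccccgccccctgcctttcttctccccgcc
Klf5 promoter: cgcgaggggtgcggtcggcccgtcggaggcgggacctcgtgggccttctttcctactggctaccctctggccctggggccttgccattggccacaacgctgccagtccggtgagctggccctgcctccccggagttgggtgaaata
These stretches were GC-rich, with 71.7% G and C in the Klf2 stretch, 74.6% in that of Klf4 and 68.5% in that of Klf5, and none of them held the letters searched for.

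At Klf2, a shared upstream site, a site listed only in the KO library and the first part of a site listed only in WT are shown, as examples of a distal site common to the libraries and of sites found in either alone. They come from chr8:74839997-74840296, chr8:74835095-74835346 and chr8:74795160-74795316.
Klf2 shared site at -2.8 kb: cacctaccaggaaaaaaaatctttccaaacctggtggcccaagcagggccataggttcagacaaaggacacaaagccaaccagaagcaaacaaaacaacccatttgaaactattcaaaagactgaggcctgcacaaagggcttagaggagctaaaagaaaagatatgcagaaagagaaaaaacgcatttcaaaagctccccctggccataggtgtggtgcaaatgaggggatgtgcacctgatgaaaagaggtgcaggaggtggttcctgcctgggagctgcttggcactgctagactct
Klf2 KO-only site at -7.7 kb: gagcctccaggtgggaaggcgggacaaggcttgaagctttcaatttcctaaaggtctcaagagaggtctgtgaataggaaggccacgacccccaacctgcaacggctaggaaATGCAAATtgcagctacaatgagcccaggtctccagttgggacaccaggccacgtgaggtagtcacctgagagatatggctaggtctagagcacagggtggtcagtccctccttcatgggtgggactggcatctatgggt
Klf2 WT-only site at -47.1 kb: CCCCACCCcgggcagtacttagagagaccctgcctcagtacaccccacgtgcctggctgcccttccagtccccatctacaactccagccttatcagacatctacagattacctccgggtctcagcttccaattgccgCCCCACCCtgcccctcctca

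At Klf4 and Klf5, distal sites shared by both libraries are shown. They come from chr4:55527726-55527930, chr4:55493306-55493605 and chr14:99720054-99720221.
Klf4 shared site at 17.5 kb: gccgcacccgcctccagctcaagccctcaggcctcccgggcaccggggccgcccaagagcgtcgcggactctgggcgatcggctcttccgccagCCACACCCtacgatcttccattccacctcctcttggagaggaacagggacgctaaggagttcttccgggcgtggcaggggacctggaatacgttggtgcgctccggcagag
Klf4 shared site at 51.9 kb: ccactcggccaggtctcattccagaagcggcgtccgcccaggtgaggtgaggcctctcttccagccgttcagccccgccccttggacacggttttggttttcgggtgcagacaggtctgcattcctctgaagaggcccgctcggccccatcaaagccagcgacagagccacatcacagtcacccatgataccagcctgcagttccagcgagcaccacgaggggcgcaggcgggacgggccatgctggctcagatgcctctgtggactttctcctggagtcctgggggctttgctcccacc
Klf5 shared site at 22.2 kb: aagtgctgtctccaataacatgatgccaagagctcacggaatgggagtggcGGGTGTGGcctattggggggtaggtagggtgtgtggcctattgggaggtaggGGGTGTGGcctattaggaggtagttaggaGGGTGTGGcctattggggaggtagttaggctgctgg

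The deposited lists limit what can be read at these genes. All 112 peaks had the same width, and the only score deposited was 1 for every peak, so neither the extent nor the strength of an open region is known. The number of fragments behind a peak is unknown too, so a site that is not listed may still be open. Broad open regions are split into several neighbouring peaks. The number that ends each peak's name counts within its chromosome. What it orders is not given in the sources used here. It is given below as a percentile, where a low value is a number early in the list of that chromosome. The libraries also differed as a whole, with 0.857 KO peaks per WT peak over all chromosomes. Chromosome 8, which carries Klf2, stood at 0.641, the lowest of the 19 autosomes, with chromosome 19 next at 0.805 and chromosome 14, which carries Klf5, highest at 0.924. As markers of ESCs, 8 of 8 genes had a peak within 2 kb of a TSS in both libraries. Of 8 fibroblast genes, 5 had one in both and Col3a1, Postn and Lum had none. Over all protein-coding genes, 57% had one in both and 34.6% in neither, so the fibroblast count stood near that background. The part of feeder cells in the peaks was not tested.

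Klf2 had the most peaks in WT, followed by Klf4 and Klf5, and in KO Klf2 and Klf4 had the same number. Klf2 had 26 WT peaks (95% exact Poisson interval 17 to 38.1, which covers counting error only) and 19 KO peaks (11.4 to 29.7). Klf4 had 22 WT peaks (13.8 to 33.3) and 19 KO peaks (11.4 to 29.7). Klf5 had 14 WT peaks (7.65 to 23.5) and 12 KO peaks (6.2 to 21). The intervals of the libraries overlapped at every gene, and those of neighbouring genes in this order overlapped as well. The KO number divided by the WT number was 0.731 at Klf2, above the 0.641 of its chromosome and below the 0.857 of all peaks. It was 0.864 at Klf4, beside 0.842 for chromosome 4, and 0.857 at Klf5, beside 0.924 for chromosome 14. Among the 837 protein-coding genes of chromosome 8 with at least 10 WT peaks in the same kind of window, the median ratio was 0.667 and the quartiles were 0.538 and 0.786, so Klf2 lay inside the range of its neighbours.

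**Figure D1:**
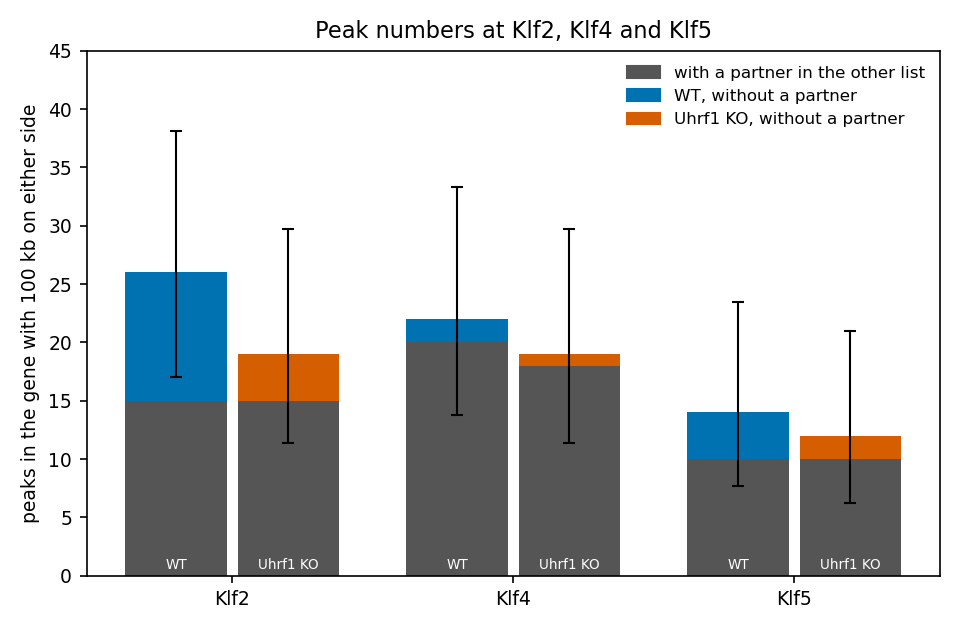
Bars give the number of peaks (vertical axis) in each gene with 100 kb on either side, for the WT and the Uhrf1 KO library, split by whether a peak of the other list lay within 100 bp; error bars are 95% exact Poisson intervals of the whole bar. The coloured part of the bar is largest for Klf2 in WT, with 11 of 26 peaks, and smallest for Klf4, with 2 of 22 WT and 1 of 19 KO peaks.

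Windows around other genes give a scale for these numbers. The median protein-coding gene had 11 WT peaks (quartiles 6 and 17) and 9 KO peaks (quartiles 5 and 14). At least as many peaks as at Klf2 were found at 9.64% of protein-coding genes in WT and 13.2% in KO, and for Klf4 these shares were 15.6% and 13.2%. Klf5 lay nearer the middle, with shares of 38.9% and 35.6%. Windows of neighbouring genes overlap, so genes are not independent of each other here.

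**Figure D2:**
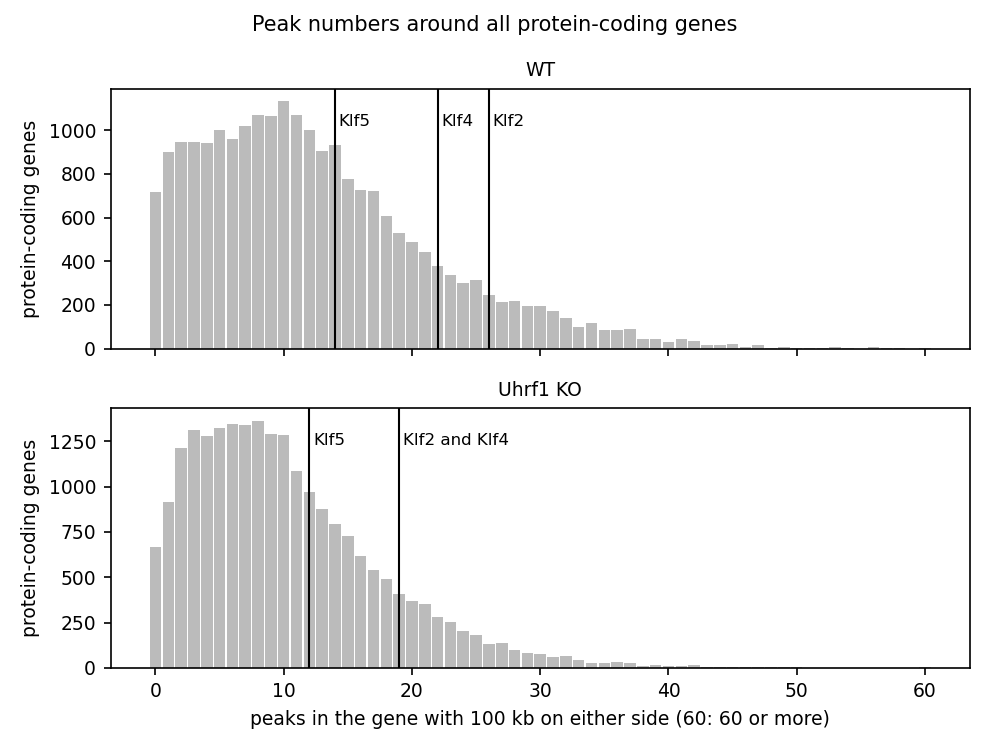
Grey bars count protein-coding genes (vertical axis) by the number of peaks in the gene with 100 kb on either side (horizontal axis), for WT above and Uhrf1 KO below; black lines mark the 3 Klf genes. Klf2 with 26 and Klf4 with 22 WT peaks lie in the upper tail, and Klf5 with 14 lies close to the bulk around the median of 11.

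The share of peaks with a counterpart in the other list ranged widely over the genes. A peak was called paired when a peak of the other list lay within 100 bp. Of the 26 WT peaks of Klf2, 11 (42.3%, 95% exact binomial interval 23.4% to 63.1%) had no KO partner, beside 43.6% of all WT peaks of chromosome 8 and 32.1% of all WT peaks. Of its 19 KO peaks, 4 (21.1%, 6.05% to 45.6%) had no WT partner, beside 17.1% on chromosome 8 and 24.6% overall. Both shares at Klf2 were near those of its chromosome, so neither is a result about Klf2.

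At Klf4, 2 of 22 WT peaks (9.09%, 1.12% to 29.2%) were without a partner, where chromosome 4 had 32.4%. In the KO list it was 1 of 19 peaks (5.26%, 0.133% to 26%), where chromosome 4 had 25.3%. The WT interval of Klf4 ended below the share of its chromosome, and the KO interval reached just past it. Neighbouring peaks at Klf4 overlap and share their sequence, so they are not independent counts, and the shares depended on the rule for a partner. With at least 50% of both peaks shared, 10 of 22 WT peaks and 8 of 19 KO peaks had no partner, and with at least 1 bp shared these numbers were 4 and 2. The share over all peaks was not taken under these rules, so the chromosome shares above are no background for them.

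At Klf5, 4 of 14 WT peaks (28.6%, 8.39% to 58.1%) were without a partner, beside 28.3% on chromosome 14. In the KO list these were 2 of 12 (16.7%, 2.09% to 48.4%), beside 26.2%. Both intervals held the share of the chromosome. Over the 3 genes, 17 WT and 7 KO peaks had no partner.

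Most of the peaks without a partner carried late name numbers. At Klf2 the median percentile was 17.3 for the 15 paired WT peaks and 55.7 for the 11 unpaired peaks, and in KO it was 20.5 for 15 paired and 94.8 for 4 unpaired peaks. At Klf5 the medians were 34.7 and 74.2 in WT and 40.8 and 97.2 in KO. Klf4 followed in WT, with 37.4 and 81.3, but its unpaired KO peak stood at 35.5, earlier than the median of 42.8 for the 18 paired peaks. Among peaks in the lower 50% of the name numbers of their chromosome, set against every peak of the other list, 4 of 17 WT and 0 of 11 KO peaks at Klf2 had no partner, where chromosome 8 had 18.9% and 5.66%. At Klf4 these were 0 of 14 WT and 1 of 14 KO peaks, where chromosome 4 had 12.1% and 9.77%. At Klf5 they were 0 of 6 and 0 of 7, where chromosome 14 had 7.93% and 9.26%, and over all chromosomes the shares were 10.8% in WT and 8.69% in KO. With so few peaks per gene, no gene is set apart by these counts.

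Since a broad region counts several times as peaks, peaks of both lists were also chained into sites wherever they lay within 1 kb of each other. The 3 genes had 32 sites, of which 19 (59.4%) were listed in both libraries, 8 in WT only and 5 in KO only. Over all 54113 sites of the lists, 54.4% were in both, 23.9% in WT only and 21.7% in KO only. Together the genes thus stood near the background. Klf2 had 14 sites with 6 in both, 5 in WT only and 3 in KO only. Klf4 had 5 sites, 5 of them in both. Klf5 had 13 sites with 8 in both, 3 in WT only and 2 in KO only.

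Sites near the start of any protein-coding gene were shared more often than distal sites in the lists as a whole, at 79.2% within 2 kb of a TSS and 44.1% farther away. In the windows of the Klf genes, 6 of 6 sites near a TSS and 13 of 26 distal sites (50%) were in both libraries. The distal sites ranged widely by gene, with 2 of 10 shared at Klf2 (20%), 4 of 4 at Klf4 and 7 of 12 at Klf5 (58.3%). The share of distal sites was not taken by chromosome, and chromosome 8, which carries Klf2, had the fewest KO peaks per WT peak of the autosomes (0.641). The 20% is therefore not read as a trait of Klf2. With so few sites per gene and no replicate library, whether these shares differ between the genes was not tested.

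**Figure D3:**
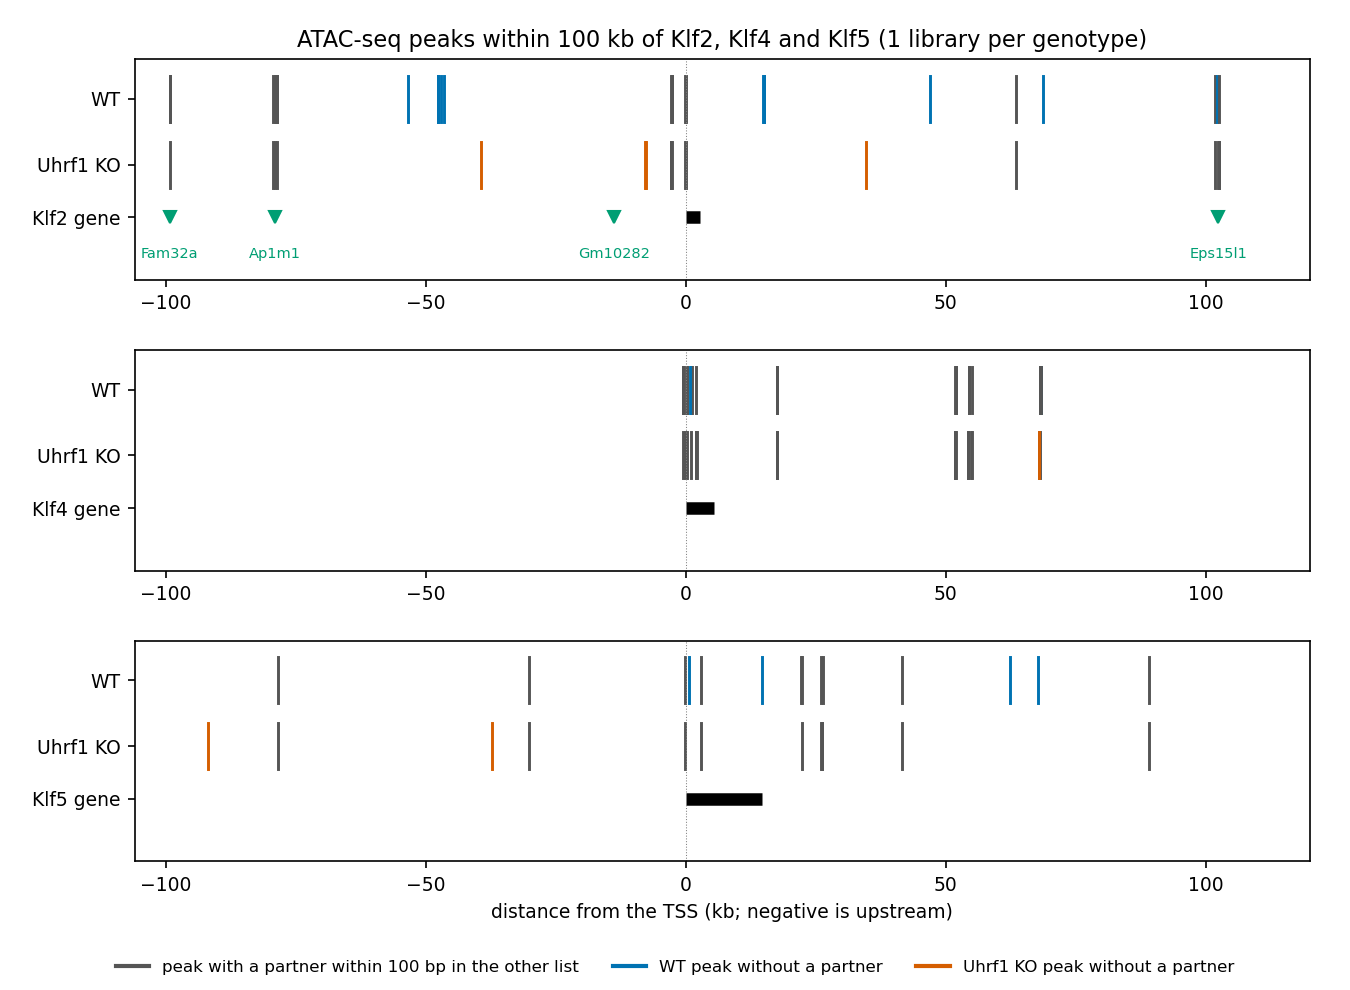
Each vertical line is a peak, placed by the distance of its centre from the TSS of the gene in kb (horizontal axis, direction of transcription to the right), in the WT and Uhrf1 KO tracks; grey peaks have a partner in the other list, blue WT and orange KO peaks have none, black bars are the genes and green triangles are TSSs of neighbouring protein-coding genes. The flank upstream of Klf4 is empty, its peaks fall into 5 shared groups, and coloured peaks cluster on both sides of Klf2.

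Klf2, a gene of 2624 bp, has close neighbours, which is not the case for the other members. The TSS of Gm10282 lies 13.8 kb away, and the TSSs of Fam32a, Ap1m1 and Eps15l1 lie within the window or at its edge. The promoters of these genes held 10 WT and 8 KO peaks of the window, with 2 WT and 1 KO peak at Fam32a, 5 and 3 at Ap1m1, a subunit of a clathrin adaptor complex, and 3 and 4 at Eps15l1, an endocytosis gene. Gm10282 had 0 in either list. A considerable part of the Klf2 window therefore belonged to promoters of other genes, and those of Fam32a, Ap1m1 and Eps15l1 were open in both libraries.

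At the Klf2 start itself, WT peaks were centred at -110 and -41 bp and KO peaks at -229 and -30 bp, all paired. Their lowest percentiles were 3.17 in WT and 2.25 in KO. The start of Klf2 was thus among the early entries of chromosome 8 in both lists, and no peak of either list was centred within the gene body. Of protein-coding genes, 46.6% had at least as many WT peaks within 2 kb of a TSS as Klf2, and 37.8% had at least as many KO peaks.

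The shared site at -2.8 kb, whose sequence is shown above, was built from 3 WT peaks centred at -2849, -2760 and -2678 bp and from 4 KO peaks centred at -2892, -2837, -2776 and -2696 bp. Its lowest percentile was 26.1 in WT and 20.5 in KO. In contrast to the promoter it was poor in GC, with 47.7% in the stretch shown, and the WT peaks there held 1 to 5 CpG dinucleotides in their central 200 bp, where the promoter peaks of WT held 19 and 26.

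Between this site and the shared sites at -79.1 and -99.3 kb, which are the promoters of Ap1m1 and Fam32a, every site was listed in only 1 library. The KO list alone had a site at -7.7 kb with peaks at -7787 and -7636 bp, and the nearest WT peak was 4837 and 4686 bp away from them. Both peaks held the octamer ATGCAAAT in their central 200 bp, at 1 and the same place, -7721 bp from the TSS. This place lies between the peaks, and as listed neither peak held the octamer. Their percentiles were 94.8 and 94.9. A further KO-only peak at -39.4 kb stood at percentile 94.8, and its central 31 bp are found 3 times in the genome, so its position is uncertain. The 3 sites of Klf2 listed only in KO thus all had late name numbers, the last being a peak at 34.6 kb in an intron of Eps15l1 with percentile 74.5.

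The WT list alone had a site of 1327 bp at -47.1 kb, with peaks at -47722, -47666, -47133 and -46496 bp and percentiles of 63.6, 55.7, 46.6 and 55.7. The nearest KO peak was at least 7005 bp from any of them. The CACC box CCCCACCC lay in the central 200 bp of the peaks at -47722 and -47666 bp. The central 200 bp of the peak at -47133 bp held CCACACCC and TCAAGGTCA, the latter being letters bound by Esrrb. This was the only WT peak of the 62 that held TCAAGGTCA in that window, beside 0.295% of all WT peaks. As listed, the peak held CCACACCC but not TCAAGGTCA.

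Downstream, WT alone had a site at 15.0 kb, with peaks at 14886, 14965 and 15024 bp and percentiles of 77.8, 63.6 and 39.8. No CpG was found in the central 200 bp of any of these peaks. Single WT-only peaks lay at 46969 bp (percentile 39.9) and 68769 bp (96.8) in introns of Eps15l1 and at -53493 bp (77.7) between genes. A further WT peak without a partner, at 102150 bp (percentile 42), belonged to the Eps15l1 promoter and missed a KO peak by 141 bp. The intronic peak at 63.5 kb was the distal site downstream of Klf2 that both libraries listed, with 1 peak each and percentiles of 63.6 and 35.3, and it held CCCCACCC in both.

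The earliest ranks in the Klf2 window lay at other promoters as well as its own. Beyond 20 kb, the lowest percentiles in WT were 3.82 at Eps15l1 (102514 bp) and 4.32, 7.18, 9.58 and 14.2 at Ap1m1. In KO they were 3.87 and 6.54 at Eps15l1, 15.8 and 16.7 at Ap1m1 and 18 at Fam32a. All of these were paired peaks. The study's own ChIP-qPCR primers for Klf2 mark a stretch of 219 bp at chr8:74844279-74844497 in an intron of the gene, centred 1456 bp from the TSS, and this stretch was 1337 bp from the nearest WT peak and 1326 bp from the nearest KO peak.

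**Figure D4:**
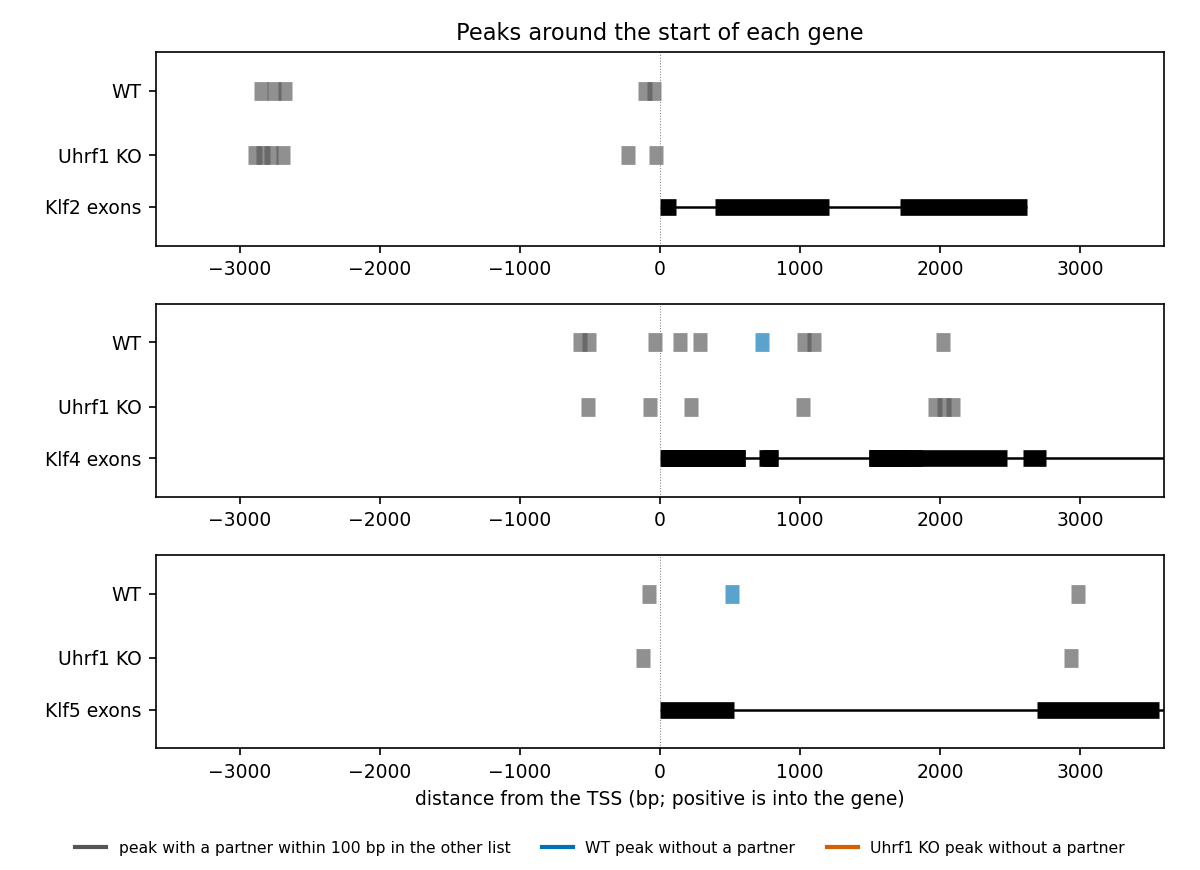
Each block is a peak near the start of Klf2, Klf4 and Klf5, placed by distance from the TSS in bp (horizontal axis), in the WT and Uhrf1 KO tracks, with darker grey where peaks overlap; grey blocks have a partner in the other list, blue blocks are WT peaks without one, and black boxes below are exons. Peaks continue into the gene body of Klf4 in both libraries, while at Klf2 they stop at the start and at Klf5 a WT peak at 514 bp has no KO counterpart.

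Klf4, a gene of 5335 bp, had the most densely covered start. By any of its 4 annotated transcript starts, 9 WT and 7 KO peaks lay within 2 kb, and only 1.09% of protein-coding genes had at least as many in WT and 1.36% in KO. The WT peaks of the promoter and gene body were centred at -574, -507, -38, 143, 286, 728, 1026, 1097 and 2023 bp from the 5′ end of the gene. The KO peaks were centred at -512, -72, 220, 1023, 1962, 2030 and 2095 bp. Both sets thus ran from the promoter through the untranslated part of the transcript, an intron and a coding exon, in a site of 2770 bp. The WT peak at 728 bp, in a coding exon, was the only one of them without a partner, 194 bp from a KO peak, and it stood at percentile 77.5.

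The promoter peak of Klf4 stood at percentile 9.06 in WT (-38 bp) and 14.7 in KO (-72 bp). Its GC content reached 80% in the central 200 bp of the WT peak at 143 bp and 78.5% in the KO peak at 220 bp. These were the highest values among the peaks of the 3 genes in each list.

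Upstream of Klf4 there was no peak beyond -624 bp in either library, and no other protein-coding TSS lay within the window, the nearest being that of Rad23b at 182 kb. Downstream, 4 sites were listed in both libraries. The site at 17.5 kb had WT peaks at 17472 and 17571 bp and KO peaks at 17467 and 17551 bp. Its lowest percentiles, 4.63 in WT and 6.31 in KO, came before those of the Klf4 promoter in both lists. The central 200 bp of all of these peaks held the CACC box CCACACCC shown in capitals above, and had a GC content of 64.5% to 69.5%. As listed, only the KO peak at 17551 bp held the box.

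Mouse ESCs are known to use distal enhancers downstream of Klf4, and the other sites lay on that side. The site at 51.9 kb had 4 WT peaks from 51831 to 52021 bp and 3 KO peaks from 51762 to 51911 bp, with lowest percentiles of 19.4 and 42.8. The site at 54.7 kb had 3 WT and 4 KO peaks, with lowest percentiles of 24 at 54384 bp and 42.8 at 54377 bp. Both of these sites came later in the KO list than in WT. The site at 68.1 kb, in an intron of the transcript Gm12510, had 4 WT and 3 KO peaks, and here the order was turned, with 47.5 in WT and 20.5 in KO. At this site the libraries also differed in place. The WT peaks lay at 68135 to 68344 bp and the KO peaks at 67926 to 68117 bp, nearer to the gene, and the outermost peaks, at 68344 bp in WT and 67926 bp in KO, had no partner by 126 and 108 bp. With the percentiles of single peaks having no known error, these shifts between the libraries have no measure of significance.

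The stretch at 68.1 kb was also where the Sox motif CATTGTT was found in WT. It lay in the central 200 bp of 3 of the 4 WT peaks and of 0 of the 3 KO peaks, which lie nearer to the gene. The windows of the 3 WT peaks overlap and read the same match. As listed, only the peak at 68268 bp held it. Over all peaks, 2.1% of WT and 2.84% of KO peaks held these letters.

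Klf5, the longest of the genes with 14715 bp, had the earliest rank at its start. The WT peak at -76 bp stood at percentile 0.8 and the KO peak at -121 bp at 1.88, both on chromosome 14 and paired with each other. A WT peak at 514 bp, at the end of the first exon, was 534 bp from the nearest KO peak and stood at percentile 68.2. At least as many peaks within 2 kb of a TSS as at Klf5 were found at 46.6% of protein-coding genes in WT and 58.7% in KO.

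Within the gene, a site at 3.0 kb in a coding exon was shared, with a WT peak at 2985 bp and a KO peak at 2939 bp at percentiles of 13.6 and 14.9, and both held CCCCACCC. A WT peak at 14558 bp, in the coding part of the last exon, had no partner and stood at percentile 74.2. This peak had 66% GC and 18 CpG dinucleotides in its central 200 bp.

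Downstream of the gene the shared sites followed at 22.2, 26.1, 41.6 and 89.1 kb, and upstream at -30.2 and -78.6 kb. The 22.2 kb site had WT peaks at 22194 and 22250 bp (percentiles 33.6 and 30) and a KO peak at 22261 bp (13.4). The central 200 bp of each of these peaks held 3 matches to the CACC box CCACACCC. These are seen as GGGTGTGG in the plus strand shown above because they run on the minus strand. The windows overlap and read the same matches. As listed, each of these peaks held the box, but not all of the matches. In the central 200 bp, 39 of all WT peaks (0.0543%) and 42 of all KO peaks (0.0683%) held 3 or more. Each match is followed by the letters cctatt, in near repeats of a short unit, and the central 31 bp of these peaks are found at 1 genomic place. This feature was picked out after the matches had been seen.

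The 26.1 kb site had WT peaks at 25997 and 26307 bp and KO peaks at 25983, 26101 and 26254 bp, with lowest percentiles of 26.4 and 40.7, and the KO peak at 26101 bp held CATTGTT. The 41.6 kb site had 1 peak in each list, at 41587 bp in WT and 41551 bp in KO with percentiles of 63.3 and 40.8, and both peaks held the octamer ATGCAAAT. At -30.2 kb the peaks were centred at -30207 bp in WT and -30210 bp in KO, with percentiles of 35.8 and 32.1. At 41.6 and -30.2 kb the WT and KO peaks thus overlapped, with percentiles in the middle of the lists. The remaining shared sites stood later. At -78.6 kb, in an intron of Pibf1, the percentiles were 74.1 in WT and 77.4 in KO, and at 89.1 kb they were 63.3 and 97.3.

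Sites of Klf5 in 1 library only had late name numbers. In WT these were peaks at 62375 bp (percentile 98.2), 67696 bp (74.2) and the one in the last exon. In KO they were peaks at -91910 bp (97.2), in an intron of Pibf1, and at -37401 bp (97.3). The TSS of Pibf1, the nearest of a protein-coding gene, lies 122 kb away, and as at Klf4 no other coding promoter lay in the window.

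**Figure D5:**
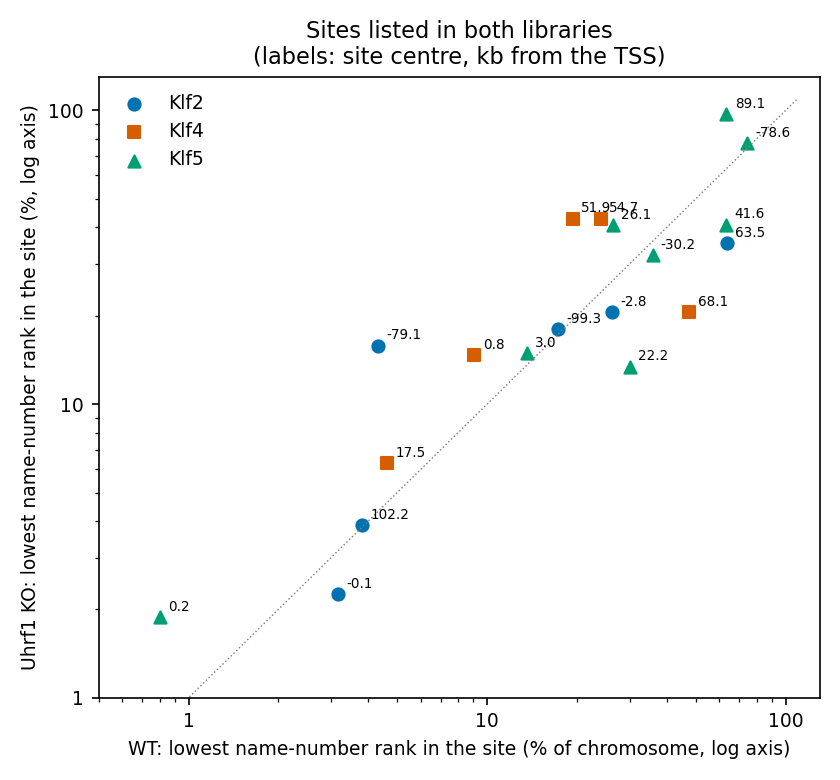
Each point is a site listed in both libraries, placed by the lowest name-number percentile among its WT peaks (horizontal axis, log scale) and among its KO peaks (vertical axis, log scale); labels give the site's distance from the TSS in kb, and the dotted line marks equal percentiles. The promoters of Klf5 (0.8 and 1.88) and Klf2 (3.17 and 2.25) lie at the lower left, and the Klf4 sites at 51.9 and 54.7 kb lie above the line, where the KO percentile is the later.

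Sequence features of the Klf peaks were set beside those of all peaks, using the central 200 bp and both strands. The median GC content was 58.5% in the 62 WT peaks and 57.2% in the 50 KO peaks, beside 59.5% and 56.5% over all peaks. The KO peaks without a partner were lower, at 48.5% over 7 peaks, and the WT peaks without one stood at 57.5% over 17 peaks. None of these KO peaks lay within 2 kb of a protein-coding TSS, and GC content over all unpaired peaks was not taken. The CACC box CCACACCC was found in 5 WT and 3 KO peaks and CCCCACCC in 6 and 2, where 3.44% and 3.51% of all peaks held the former and 8.92% and 8.57% the latter. The octamer ATGCAAAT was found in 1 WT and 3 KO peaks (1.59% and 1.95% of all peaks), and TTCCNGGAA, bound by Stat factors, in 0 of either (0.644% and 0.689%). Neighbouring peaks read partly the same bases, so these counts stand for fewer places, and a match does not show that a factor was bound. The central 31 bp were found at 1 place of the genome in 62 of 62 WT peaks and 49 of 50 KO peaks.

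Within the family of Krüppel-like and Sp factors, open promoters were the rule. Of the 26 genes, 22 had a peak within 2 kb of a TSS in both libraries, Klf2, Klf4 and Klf5 among them. Klf14 had 2 WT peaks and 0 KO peaks there, and Klf12, Klf17 and Sp7 had none in either list. Of all protein-coding genes, 57% had such a peak in both libraries, 6.64% in WT only, 1.73% in KO only and 34.6% in neither. By the number of peaks in the window, Klf2 ranked 8 of 26 in both lists, Klf4 ranked 10 in WT and 8 in KO, and Klf5 ranked 16 and 17, where the family medians were 18 and 16.5 peaks.

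The family members whose peak numbers in both libraries came closest were named by the distance of log2(peaks + 1), which rests on 2 values per gene and is a description. For Klf2 these were Sp8, with 25 WT and 18 KO peaks (distance 0.09), and Klf13, with 28 and 21 (0.17). For Klf4 they were Klf15, with 21 and 20 (0.10), and Sp8 (0.19). For Klf5 they were Sp4, with 15 and 12 (0.09), and Sp3, with 13 and 13 (0.15).

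Most promoters of the genes that work with the Klf factors in ESCs were open as well. From 24 genes of LIF signalling, FGF signalling and the naive pluripotency network, 23 were found in the annotation, and 21 of these had a promoter peak in both libraries. Over all protein-coding genes this share was 57%. The LIF receptor gene Lifr had 4 WT and 3 KO promoter peaks, and Stat3, which passes the LIF signal to Klf4, had 6 and 5. Pou5f1, which encodes Oct4, had 7 and 4, and Esrrb had 4 and 4. Most of the 23 genes had fewer promoter peaks in KO than in WT, with the widest gaps at Fgfr1 (7 and 2) and Socs3 (6 and 2). The lists as a whole held 0.857 KO peaks per WT peak. More peaks in KO were listed only at Sox2 (2 and 4), Dppa3 (1 and 3), Fgf4 (1 and 2) and Tcf7l1 (4 and 5). Prdm14, a factor that helps to keep the naive state, had 3 WT peaks and 0 KO peaks, and Il6st, which encodes the shared co-receptor of the LIF receptor, had none in either list.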

How the data were processed

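The ATAC-seq peak lists of 1 WT and 1 Uhrf1 KO library were compared. The authors mapped reads to mm9 with Bowtie2 2.1.0, reported 1 alignment per read and used fragments shorter than 150 bp. The submitters' processing notes also name HOMER 4.9.1 without its role, and the peak threshold is not given in the sources used here. The deposited score is 1 for every peak and was not used, and the deposited positions were the only measurement. Members and gene lists were chosen with earlier results of these data known. Genes were those of GENCODE vM1. Peaks named were those within 20 kb of a TSS, those without a partner and, beyond, the 5 with the lowest name numbers per gene. Neighbouring genes were named for a TSS within 2 kb of a peak in the window, with Gm10282 named in addition as the nearest to Klf2. List genes were named for a promoter peak in only 1 library or none. Lifr, Stat3, Pou5f1, Esrrb, Fgfr1, Socs3, Sox2, Dppa3, Fgf4 and Tcf7l1 were added after their values were seen. Chaining of sites and shortening the WT list were chosen after seeing the data. Sequence was read with pysam 0.24.0. Python 3.11.15, numpy 2.4.6, scipy 1.17.1, numba 0.67.0 and matplotlib 3.10.9 were used. On 20000 simulated regions with known partners, the overlap step made 0 wrong calls. Tfcp2l1 was not found under this name and was not analysed here.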

Additional observations from a re-analysis of the deposited data

How the results depend on the processing

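No paired analysis was possible because there was only 1 library per genotype. Of 100 alternative values, 64 stayed within 1.5 times of the value given and 36 moved beyond that. Whether a direction between the libraries turned was not scored. The settings that moved values count less sequence, fewer peaks or a stricter partner, by construction. With 50 kb on either side Klf2 had 13 WT and 10 KO peaks. With peaks within 100 bp merged, it had 16 and 12, and Klf4 had 10 and 10. With the lower 50% of name numbers, WT and KO peaks were 17 and 11 at Klf2 and 6 and 7 at Klf5, and 14 in WT at Klf4. Peaks without a partner in that part were 4 of 17 WT and 0 of 11 KO at Klf2, 0 of 14 WT and 1 of 14 KO at Klf4, and 0 of 6 WT and 0 of 7 KO at Klf5. With at least 50% of both peaks shared, KO peaks without a partner were 8 of 19 at Klf2, 8 of 19 at Klf4 and 4 of 12 at Klf5, and Klf4 had 10 of 22 in WT. With at least 1 bp shared Klf4 had 4 of 22 WT and 2 of 19 KO, after merging 1 of 10 WT and 0 of 10 KO, and with the WT list shortened to the KO length 3 of 19 KO. The shares over all peaks were not taken with 50% or 1 bp shared, after merging or with the shortened list. Promoters of 1 kb gave 3 family genes in WT only, 1 network gene in KO only and 2 in neither. The lower 50% of name numbers gave 4 family and 4 network genes in WT only, 1 network gene in KO only and 3 in neither. Over the peak as listed, WT peaks held CCACACCC in 3, CATTGTT in 1 and TCAAGGTCA in 0, and KO peaks held ATGCAAAT in 1. Depth per peak is unknown, so no difference at a gene has an error between libraries.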
